A study of Sus scrofa with 4 samples.

Results

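The 9 transcription factor genes TP63, KLF4, KLF5, GRHL1, GRHL3, OVOL1, ZNF750, PRDM1 and MAF were followed in sorted pig skin cells. They were chosen by name, as TP63 and factors that drive keratinocyte differentiation, and all 9 were found among 29837 named genes and passed the filter on low counts. RNA was sequenced from epidermal cells of 2 juvenile pigs, 88R and 95R, in which H2B-GFP, a histone joined to green fluorescent protein, had been placed in exon 1 of a single LGR5 allele, so that LGR5 drives it. Each pig gave 1 LGR5-high library (the brightest GFP cells) and 1 LGR5-negative library (cells without GFP), and both populations therefore carry the same edited allele. The transgenic line was founded by nuclear transfer from clones of edited fetal fibroblasts, and cells sorted as GFP Lo are in neither library. The libraries held between 30696803 and 32463362 counts on named genes.

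Keratinocytes start as dividing basal cells on the basement membrane and become suprabasal and then cornified cells as they move outwards. TP63 maintains the basal state and opens the programme. ZNF750, KLF4, the grainyhead factors GRHL1 and GRHL3, OVOL1, PRDM1 and MAF act later, on the side of terminal differentiation, while KLF5 is used by basal and suprabasal cells alike. LGR5, a receptor that strengthens WNT signalling, marks stem cells of the hair follicle, which can enter the follicular lineages or, after wounding, the epidermis.

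LGR5 itself, whose reporter was used for the sort, was counted 4551 times in LGR5-high cells of pig 88R and 6224 times in those of pig 95R, against 36 and 109 times in LGR5-negative cells. Of the epidermal keratinocyte markers, KRT5, DSP, PERP, KRT1, KRT10 and DSG3 were present in all libraries, and KRT14 was not analysed here. These 6 markers summed to between 38557 and 40097 CPM (read counts relative to the TMM-scaled library size) in LGR5-high and between 90639 and 102966 CPM in LGR5-negative. KRT1, KRT10 and PERP were lower, DSG3 was higher at a log2 fold change of 0.87, and KRT5 and DSP were not called. Most of the gap in the sum lay in KRT1 (mean CPM 2461 in LGR5-high, 29010 in LGR5-negative) and KRT10 (2664 and 28818).

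The question was how far the programme of epidermal differentiation factors differs between LGR5-high and LGR5-negative cells. Of the 9 factors, 7 were lower in LGR5-high, none was higher, and TP63 and ZNF750 did not pass the test. With edgeR's quasi-likelihood test and an adjusted p under 0.05, 22.0% of 15980 tested genes were lower and 22.7% were higher, against 7 of 9 and 0 of 9 factors. Higher genes made up 50.9% of all calls, and 70.2% when libraries were scaled by library size only, where 6 factors were lower and none higher. The median log2 fold change of LGR5-high over LGR5-negative was -1.35 for the 9 factors and 0.02 for all tested genes. The changes of the factors lay between -2.12 for KLF5 and -0.17 for TP63 and ZNF750. In bulk libraries, fewer cells that use a gene and less of its RNA per cell cannot be told apart.

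**Figure D1:**
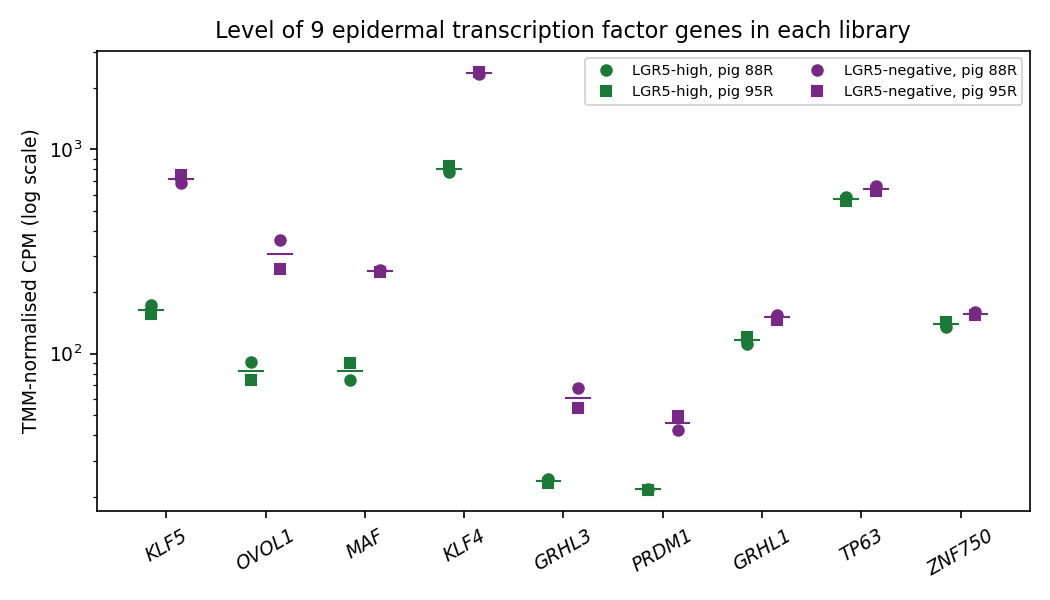
TMM-normalised CPM of the 9 genes (log axis) in the LGR5-high (green) and LGR5-negative (purple) libraries of pig 88R (circles) and pig 95R (squares), with a short line at each population mean, in the order of their log2 fold change. The fitted decreases in LGR5-high run from 4.34-fold for KLF5 to 1.12-fold for ZNF750. The fitted estimates of TP63 and ZNF750, which were not called, change sign when scaled by library size only.

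TP63 is needed to form stratified epithelium and to keep its basal cells. LGR5-high cells had 583 CPM in pig 88R and 556 CPM in pig 95R, where LGR5-negative cells had 658 and 626 CPM. Both LGR5-high values were below both LGR5-negative values, but the gap was narrow. The estimate was a log2 fold change of -0.17 (standard error 0.0813, adjusted p = 0.135), and the single pigs had -0.18 (88R) and -0.17 (95R). Scaled by library size only, it was 0.05 (adjusted p = 0.627), so that the direction depended on the scaling. TP63 makes long and short isoforms from different promoters, and counts per gene cannot separate them.

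ZNF750, a zinc finger factor that acts downstream of TP63 and switches on differentiation genes, had 136 and 144 CPM in LGR5-high and 160 and 154 CPM in LGR5-negative, in pigs 88R and 95R. Its estimate was -0.17 (standard error 0.078, adjusted p = 0.129), and the single pigs had -0.24 (88R) and -0.10 (95R). Like TP63 it turned to the other sign with library size only, at 0.05 (adjusted p = 0.593). Among the factors with a role in differentiation it was therefore the one closest to an even level in the sorted populations. Its RefSeq span overlaps that of TBCD, which had 3107 and 3244 counts in LGR5-high and 2943 and 2838 counts in LGR5-negative. The strand setting of the counting is not given in the sources used here, so reads of overlapping genes may not be separated.

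The Krüppel-like factors KLF4 and KLF5 were both lower in LGR5-high. KLF4, which is required for the barrier of the skin, had 775 and 826 CPM in LGR5-high and 2322 and 2396 CPM in LGR5-negative, in pigs 88R and 95R. The 2 pigs gave log2 fold changes of -1.58 and -1.54, the closest agreement after TP63 among the 9 genes. KLF4 was 2.94-fold lower, with a log2 fold change of -1.56 (standard error 0.0883, adjusted p = 1.54e-04).

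KLF5 had 172 and 157 CPM in LGR5-high and 680 and 748 CPM in LGR5-negative, in pigs 88R and 95R. This was the largest estimated decrease among the 9 factors, 4.34-fold, and 3.22% of all tested genes had a lower log2 fold change. The estimate was -2.12 (standard error 0.0974, adjusted p = 9.09e-05). Within the LGR5-high libraries there were 4.50 and 5.27 counts of KLF4 for each count of KLF5, and within the LGR5-negative libraries 3.41 and 3.20. The balance of the pair thus lay further towards KLF4 in both LGR5-high libraries.

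The grainyhead factors differed in the size of their decrease. GRHL3, which serves closure of the barrier and wound repair, had 24.5 and 23.5 CPM in LGR5-high and 67.8 and 54.4 CPM in LGR5-negative, in pigs 88R and 95R. It was 2.55-fold lower, with a log2 fold change of -1.35 (standard error 0.132, adjusted p = 8.12e-04). The LGR5-high values were nearly equal, while the LGR5-negative value of pig 88R was above that of pig 95R.

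GRHL1, known for its control of desmosomal cadherins, had 112 and 120 CPM in LGR5-high and 155 and 146 CPM in LGR5-negative, in pigs 88R and 95R. It was 1.30-fold lower, with a log2 fold change of -0.38 (standard error 0.082, adjusted p = 0.0141), and this was the smallest change that passed the test. The call was lost with library size only, at -0.15 (adjusted p = 0.171), without the LGR5-high library of pig 88R, at -0.33 (adjusted p = 0.0812), and without the LGR5-negative library of pig 88R, at -0.34 (adjusted p = 0.0577). Each count of GRHL3 was matched by 4.57 and 5.13 counts of GRHL1 in LGR5-high, and by 2.28 and 2.69 counts in LGR5-negative. This ratio, which does not depend on scaling between libraries, was above 4 in both LGR5-high libraries and below 3 in both LGR5-negative ones. The third grainyhead gene, GRHL2, an epithelial factor that is not counted among the 9, stood at -0.36 (standard error 0.0872, adjusted p = 0.0201), and it lost its call with library size only (-0.13) and without 3 of the 4 libraries in turn. Under that scaling GRHL3 was the only grainyhead gene called.

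OVOL1, a zinc finger repressor that helps progenitors leave the cell cycle, had 91.1 and 74.2 CPM in LGR5-high and 359 and 259 CPM in LGR5-negative, in pigs 88R and 95R. It was 3.74-fold lower, with a log2 fold change of -1.90 (standard error 0.184, adjusted p = 7.80e-04). In both populations the library of pig 88R was above that of pig 95R, and the log2 fold changes of the pigs were -1.98 and -1.80. Its paralog OVOL2, which opposes the loss of epithelial character, stood at 0.24 (standard error 0.145, adjusted p = 0.230) and was called higher with library size only, at 0.46 (adjusted p = 0.0410). There were 6.15 and 4.73 counts of OVOL1 for each count of OVOL2 in LGR5-high and 25.6 and 22.0 counts in LGR5-negative, so the ratio of the paralogs differed in the same direction in both pigs. OVOL3 was below the filter, with between 4 and 7 counts a library. The RefSeq span of OVOL1 overlaps those of AP5B1, with between 504 and 704 counts, and of LOC100511545, with 92 and 85 counts in LGR5-high and 290 and 163 counts in LGR5-negative.

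PRDM1, also called Blimp1, is a repressor used in terminal differentiation of keratinocytes as well as in lymphocytes. It had the lowest counts of the 9, with 753 and 709 counts in LGR5-high and 1209 and 1499 counts in LGR5-negative, in pigs 88R and 95R. As CPM these were 21.9 and 21.5 in LGR5-high, and 42.4 and 49.6 in LGR5-negative. It was 2.12-fold lower, with a log2 fold change of -1.09 (standard error 0.116, adjusted p = 0.00111).

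MAF, a bZIP factor of keratinocyte differentiation, had 74.7 and 90.2 CPM in LGR5-high and 257 and 252 CPM in LGR5-negative, in pigs 88R and 95R. The LGR5-negative values were nearly equal, and the LGR5-high value of pig 95R was above that of pig 88R. MAF was 3.09-fold lower, with a log2 fold change of -1.63 (standard error 0.111, adjusted p = 2.49e-04). A RefSeq lncRNA that overlaps MAF, LOC106510470, had 2 counts or fewer in each library.

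**Figure D2:**
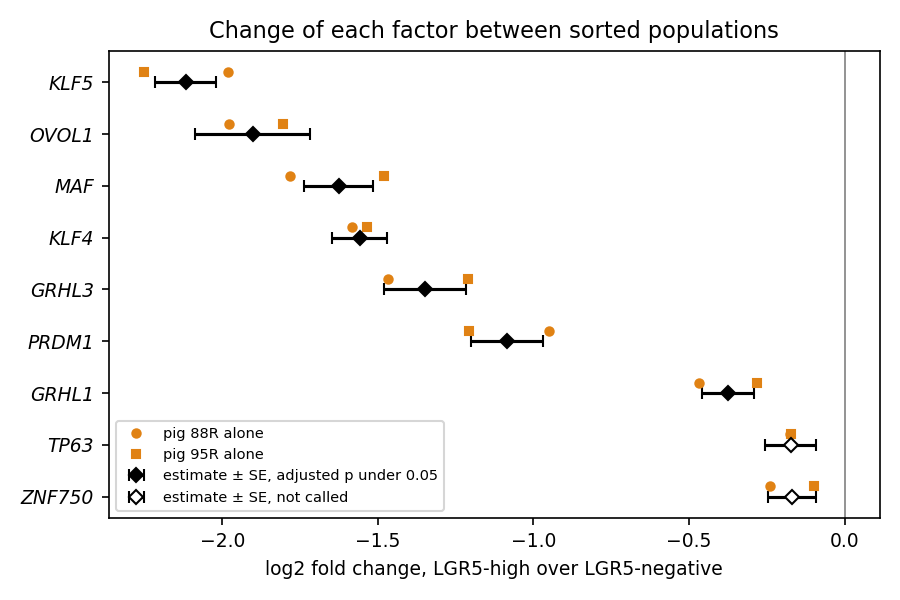
Log2 fold change of each gene, LGR5-high over LGR5-negative, as the edgeR estimate (diamond) with its standard error (bar), filled where the adjusted p was under 0.05, and the value in pig 88R alone (circle) and pig 95R alone (square). The largest gap between pigs is that of MAF, with -1.78 and -1.48. The fitted estimates of TP63 and ZNF750 turn positive with library size only.

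The fitted estimates of TP63 and ZNF750 over both pigs, below 0 with TMM scaling, turned positive with library size only. Student's t-test, the study's method, applied to log2 CPM kept the calls of KLF4 and KLF5 and lost those of the 5 others, with adjusted p-values between 0.0589 for MAF and 0.0957 for GRHL1.

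The ratio of each factor to TP63 within a library needs no scaling between libraries. For each count of TP63 there were 1.33 and 1.49 counts of KLF4 in LGR5-high, and 3.53 and 3.83 in LGR5-negative, in pigs 88R and 95R. KLF5 had 0.295 and 0.282 counts per count of TP63 in LGR5-high and 1.03 and 1.19 in LGR5-negative. In LGR5-negative cells KLF5 thus had more counts than TP63, and in LGR5-high cells fewer. OVOL1 had 0.545 and 0.414 counts per count of TP63 in LGR5-negative and 0.156 and 0.133 in LGR5-high. For MAF the ratio was 0.391 and 0.402 in LGR5-negative and 0.128 and 0.162 in LGR5-high. GRHL3 likewise had lower ratios in LGR5-high, with 0.0420 and 0.0422 against 0.103 and 0.0868 in LGR5-negative. PRDM1 had 0.0376 and 0.0386 in LGR5-high and 0.0645 and 0.0792 in LGR5-negative. GRHL1 had 0.192 and 0.216 in LGR5-high and 0.235 and 0.234 in LGR5-negative. ZNF750 kept the closest ratio to TP63, with 0.233 and 0.258 in LGR5-high and 0.244 and 0.246 in LGR5-negative, and there the populations overlapped. These ratios are read between libraries only, since counts of different genes also depend on transcript length.

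**Figure D3:**
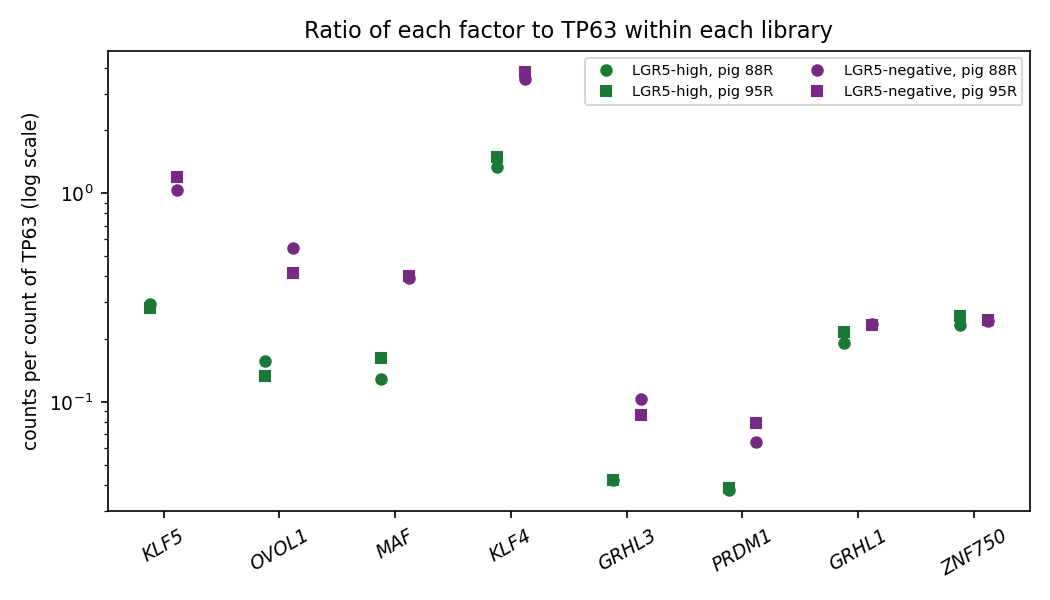
Counts of each factor per count of TP63 in the same library (log axis), for LGR5-high (green) and LGR5-negative (purple) in pig 88R (circles) and pig 95R (squares). The populations overlap for ZNF750, with ratios between 0.233 and 0.258. Among the other genes they lie closest for GRHL1, with 0.192 and 0.216 in LGR5-high and 0.235 and 0.234 in LGR5-negative.

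Families of the 9 genes were examined next, and their counts include the 9 themselves. In the KLF family 14 of 17 genes were tested, of which 11, with KLF4 and KLF5 among them, were lower and 3 were higher. Besides KLF4 and KLF5, KLF3 had a log2 fold change of -2.08, KLF11 one of -1.56, KLF10 one of -1.29 and KLF6 one of -0.85. KLF12, KLF7 and KLF15 were higher, at 2.37, 0.95 and 0.84. The same 11 and 3 counts were reached with library size only, but Student's t-test left 3 lower, KLF4, KLF5 and KLF11, and 1 higher. KLF15 lost its call without any 1 of the 4 libraries, at between 90 and 202 counts a library.

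In the MAF family the small MAF genes, which lack an activation domain, were lower, with MAFF at -1.24, MAFK at -1.16 and MAFG at -0.92. MAFA, with between 44 and 73 counts a library, had -0.83 (adjusted p = 0.0542, and 0.0284 with the pig as a replicate block), and NRL had 0.54 (adjusted p = 0.248). Among the PRDM genes tested, 4 were lower and 4 were higher. PRDM1 had the largest decrease of these, beside PRDM11 at -0.78, PRDM10 at -0.71 and PRDM2 at -0.41, while PRDM4, MECOM and PRDM6 were among the higher genes, the last 2 from between 2 and 28 counts a library. With library size only 2 were lower, PRDM1 and PRDM11, and the same number as before, 4, were higher. Without the LGR5-high library of pig 88R only 1 PRDM gene was higher, and without that of pig 95R 2 were higher and 2 lower. PRDM6 lost its call in 6 of 14 alternative fits, MECOM in 4 and PRDM4 in 3. TP73, a relative of TP63, was higher at 0.58 (standard error 0.167, adjusted p = 0.0343), a call lost without the LGR5-high library of pig 95R and without either LGR5-negative library.

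Of 20 other transcription factors of the epidermal differentiation programme, 14 were lower, 3 were higher and 3 did not pass the test, and their median log2 fold change was -0.79. By Student's t-test 4 were lower and none was higher. POU2F3, an epidermal POU factor, had -2.51 (standard error 0.104, adjusted p = 6.71e-05), and RORA, a nuclear receptor, had -2.81 (standard error 0.131, adjusted p = 9.27e-05). The last by adjusted p of the lower genes was CEBPB, at -0.62 (adjusted p = 0.0260), whose call was lost with library size only and without either LGR5-high library. Among the 3 higher factors, BNC1, a basal zinc finger factor, had 6256 and 6620 counts in LGR5-high and 1368 and 1799 counts in LGR5-negative, and a log2 fold change of 1.83 (adjusted p = 2.59e-04). ELF3, an epithelial ETS factor linked to terminal differentiation, was also higher at 1.83 (standard error 0.138, adjusted p = 3.41e-04), and VDR, the vitamin D receptor, at 1.09 (adjusted p = 7.42e-04). By their known roles ELF3 and VDR stand on the side of differentiation.

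Of 12 cofactors and regulators of TP63, KLF4 and ZNF750, 6 were lower and 2 were higher, with a median of -0.30. None of the 12 was called by Student's t-test. SATB1, a chromatin organiser that TP63 controls, had -1.96 (standard error 0.194, adjusted p = 8.32e-04), and PPP1R13L, whose protein binds TP63, had -0.82. CTBP2 and HDAC2, parts of repressor complexes, were higher at 1.21 and 0.45. The histone demethylase KDM1A and its partner RCOR1, which bind ZNF750, had -0.39 and -0.45. Their calls, and that of HDAC1, were lost with library size only, where 3 genes were lower and 2 higher. The lower count was also 3 without the LGR5-high library of pig 95R and without the LGR5-negative library of pig 88R.

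Structural and enzyme genes of the layers followed. Of 26 suprabasal and cornified layer genes tested, 18 were lower and 2 were higher, with a median of -1.45. Student's t-test left 7 of them lower and none higher. DSC1 and KRTDAP stood first by adjusted p, with log2 fold changes of -3.22 and -3.22, and CERS3, a ceramide synthase of the barrier, stood last of the lower genes with -0.67. TGM1 and DSG1, named after their values were seen because they are textbook targets of GRHL3 and GRHL1, had -2.11 and -1.14. KLK7 and CDSN were higher, at 2.72 and 4.20, although both belong to the cornified layer, KLK7 as a protease of shedding and CDSN as the adhesion protein it cuts. CDSN had 694 counts in LGR5-high cells of pig 88R but 6761 in those of pig 95R, with 146 and 213 counts in LGR5-negative; without the LGR5-high library of pig 95R its log2 fold change was 1.73, and its call was lost with limma-voom and without the LGR5-negative library of pig 88R. IVL, LOR, TGM5, SPINK5, KLK5 and ALOX12B did not pass the test. Under the replicate block ALOX12B (adjusted p = 0.00122) and SPINK5 (adjusted p = 0.046) were called lower as well.

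Of 14 basal keratinocyte genes tested, 6 were lower, 1 was higher and 7 did not pass the test, with a median of -0.23. LAMA3 and PERP, the latter a desmosomal protein that TP63 switches on, had -0.74 and -0.74, and ITGB4 had -0.38. ITGB1 was higher at 0.35 (adjusted p = 0.0323), and that call was lost without the LGR5-high library of pig 88R and without either LGR5-negative library. With the pig as a replicate block, 7 basal genes were lower and 4 were higher. With library size only, 4 were lower and 2 higher, and the median was -0.01. With Student's t-test, 1 was lower and none was higher.

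**Figure D4:**
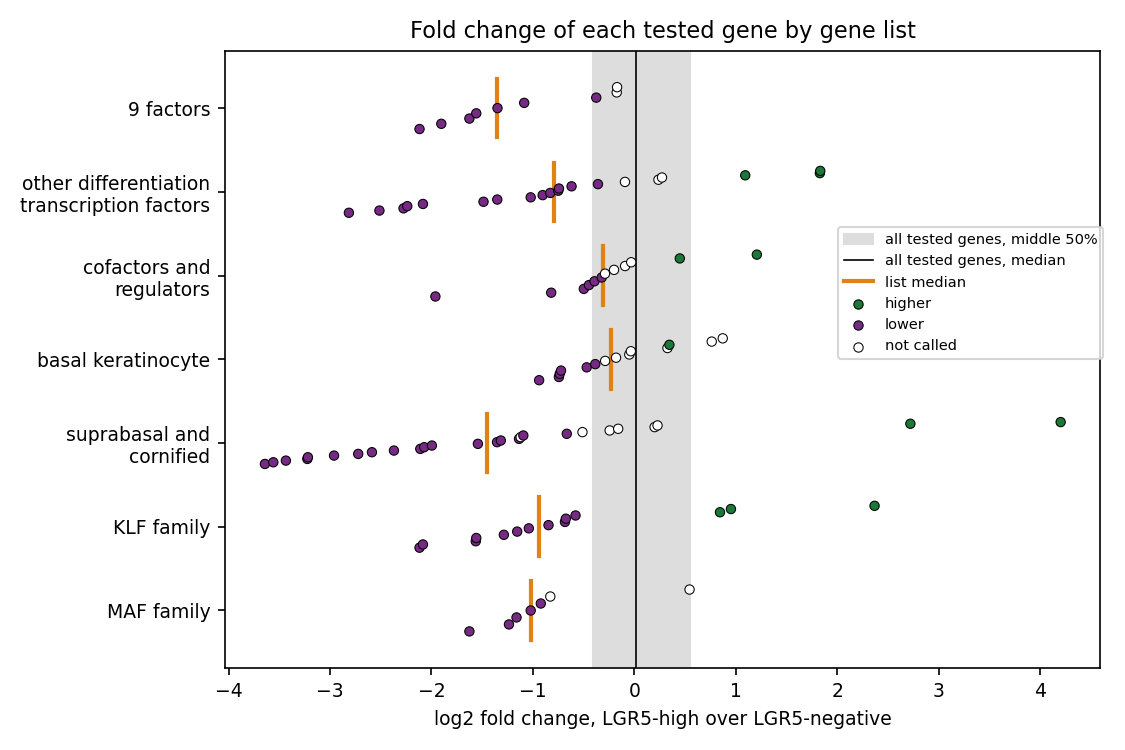
Log2 fold change, LGR5-high over LGR5-negative, of each tested gene (point) in 7 groups of genes, coloured by whether it was higher (green), lower (purple) or not called (white), with the median of each group (orange line) and the middle 50% (grey) and median (black line) of all tested genes. The medians of the 9 factors and of the suprabasal and cornified genes, -1.35 and -1.45, lie left of the grey band. So do those of the MAF family (-1.02, MAF included), the KLF family (-0.94, KLF4 and KLF5 included) and the other differentiation transcription factors (-0.79). The medians of the cofactors and regulators (-0.30) and of the basal genes (-0.23) lie within it.

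Some of the 9 factors are also used outside keratinocytes, and markers of other cells moved between the populations. Of 7 leukocyte and Langerhans cell markers tested, 5 were lower in LGR5-high and none was higher, and the 9 listed markers summed to 11.4 and 19.9 CPM in LGR5-high and to 158 and 180 CPM in LGR5-negative. The T cell markers CD3D and CD3E had 0 counts in both LGR5-high libraries and at most 2 in LGR5-negative. The inner root sheath markers were higher in 4 of 4 tested cases, with sums between 884 and 1165 CPM in LGR5-high and between 72.7 and 88.3 CPM in LGR5-negative. The simple and glandular epithelium markers were higher in 4 of 5 and the smooth muscle and pericyte markers in 4 of 4 tested cases, with sums of at most 131 and 401 CPM in LGR5-high. With DESeq2 3 simple and glandular epithelium markers were higher. By Student's t-test 1 smooth muscle and pericyte marker was higher, and no simple and glandular or inner root sheath marker. The smooth muscle and pericyte count was 2 of 4 without the LGR5-high library of pig 88R and with DESeq2 and the replicate block. The endothelial markers (4 of 5 lower), the melanocyte markers (4 of 6) and the Schwann cell markers (2 of 3) had sums of at most 19.3, 256 and 21.0 CPM in any library, and CDH19 was at 0 in all. With DESeq2 3 endothelial markers were lower, and with Student's t-test no endothelial, melanocyte or Schwann cell marker was called. Without the LGR5-high library of pig 88R 2 melanocyte markers and 1 Schwann cell marker were lower, and without that of pig 95R 1 melanocyte marker was lower. The fibroblast markers were lower in 5 cases and higher in 2, but summed to 730 and 1011 CPM in LGR5-high and to 409 and 252 CPM in LGR5-negative, with only 1 higher without the LGR5-high or the LGR5-negative library of pig 95R. The hair shaft markers were lower in 2 (1 without the LGR5-high library of pig 95R or the LGR5-negative library of pig 88R) and higher in 1 of 4, and of the sebaceous markers only AWAT2 was tested and it was not called. The part of these cells in the changes of the 9 factors was not tested.

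KLF4, KLF6, KLF10 and MAFF respond to stress, and a list of 8 immediate-early genes, which cells induce within minutes of a stimulus, was drawn up with the values already known. Of these, ATF3, FOSB, JUNB and DUSP1 were lower in LGR5-high and none was higher, and the sums were 12434 and 15809 CPM in LGR5-high and 16989 and 20982 CPM in LGR5-negative. With the replicate block 7 were lower, and with library size only 1 was lower. Leaving out the LGR5-high library of pig 88R left 1 lower gene, and leaving out that of pig 95R left 2. The list had a median of -0.30. In both populations its sum was higher in pig 95R than in pig 88R. The level of KLF4 was higher in pig 95R by 6.57% in LGR5-high and by 3.17% in LGR5-negative. The part of this list in the change of KLF4 was not tested.

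Profiles over the 4 libraries were compared by the Euclidean distance of log2 CPM after each gene had been centred on its own mean. Among the 9 factors the nearest pair was TP63 and ZNF750, at 0.105, followed by KLF4 and MAF, at 0.157, and the farthest was KLF5 and ZNF750, at 1.96. Over all tested genes, the 3 genes most like TP63 were ATG9A, CIPC and GGPS1, and 2980 genes lay within 0.25 of it. Those most like ZNF750 were ZBTB4, SNX5 and FEZ2, with 2922 genes within 0.25. GRHL1 was nearest to DAGLB, ITGB4 and URB1. KLF5 and OVOL1 had the fewest genes within 0.25, 38 each. BIN1, NEDD4 and UGT1A6 were nearest to KLF5, at between 0.0575 and 0.0988, and VPREB3, TMCC3 and ARRB1 to OVOL1, at between 0.0255 and 0.0851. KLF4 was nearest to TMEM19, B2M and its family member KLF11, at between 0.0543 and 0.0612. GRHL3 was nearest to DNAJA4, LOC110256808 and CRY2, and genes near PRDM1 included SFXN1 and DAP, and those near MAF included PRSS33 and MYD88. With 4 libraries, these distances mostly describe genes with the same fold change.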

How the data were processed

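The authors deposited raw counts of poly(A) reads per gene symbol, 1 column for each library, without normalization. The submitters' processing notes list Trimmomatic 0.36, STAR 2.5.2b, featureCounts and Subread 1.5.2. The genome build, annotation and strand setting are not given in the sources used here, so no coordinates are given, and RefSeq symbols of Sscrofa11.1, which matched all 29837 named genes, served for names and overlaps of genes only. A row without a name, between 0.360% and 0.626% of counts, was left out.

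Genes were kept by filterByExpr (minimum count 10, minimum total 15) and compared in R 4.3.3 with edgeR 4.0.16 by TMM scaling and the quasi-likelihood test of LGR5-high against LGR5-negative without further covariates with Benjamini-Hochberg adjustment over all 15980 tested genes. CPM used TMM-scaled library sizes, and 3 counts were worth between 0.0873 and 0.105 CPM. The prior count was 0.125 in the fit and 2 for fold changes of single pigs. The standard error was taken as the log2 fold change over the root of its F statistic. Permuting 2 against 2 libraries cannot pass 0.05, so no such test was made. The p-values of the main test rest on the spread between the 2 libraries of each population, shared in part across genes. That test left out the pairing by pig, and its p-values cover these 2 pigs only. Libraries of the same pig were paired by the labels, and across genes their deviations from the mean of their own population correlated at 0.370.

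Alternative scalings were library size only, the upper quartile and the size factors of DESeq2 1.42.0. Alternative filters were none and a minimum of 10 counts in all libraries. Alternative tests were edgeR with the pig as a replicate block, DESeq2 with and without this block, Student's t-test of log2(CPM + 1) and limma-voom (limma 3.58.1). The fit was repeated without each of the libraries. A minimum absolute log2 fold change of 1 was chosen after seeing the data. The fits were also run on simulated data, as a check of the code only. That simulation held no difference between pigs, and no result here rests on it. The members and gene lists were chosen with earlier results of these data known. Genes named are the 9 members, tested paralogs, the first 2 and the last called genes of each list and direction by adjusted p, and the 3 nearest profiles. Plots were drawn with matplotlib 3.10.9. Values of a few genes that this rule selects are not reported here.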

Additional observations from a re-analysis of the deposited data

How the results depend on the processing

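KLF4 and KLF5 kept direction and call in all 14 alternative fits, and GRHL3, OVOL1, PRDM1 and MAF in 13, the exception being Student's t-test. GRHL1 kept its direction in all 14 and its call in 10. TP63 and ZNF750 turned to 0.051 and 0.054 with library size only, which moved the median of all tested genes from 0.02 to 0.24, and were called in none. The number of lower factors was 7 in most settings, 6 with library size only, 2 with Student's t-test, and between 6 and 7 when a library was left out, and no factor was higher in any, by edgeR, DESeq2 or limma, nor at an unadjusted p under 0.05. The replicate block left 7 factors lower, with TP63 at an adjusted p of 0.102, and changed no call among the 9. Over all tested genes, 3632 were higher and 3508 lower, against 5473 and 2326 with library size only, so that the share of higher calls went from 50.9% to 70.2%, 544 and 502 with the t-test, and 2339 and 1505 with a minimum absolute log2 fold change of 1. Leaving out a library gave between 2279 and 3169 higher and between 2139 and 3004 lower genes. The cause of these moves was not tested. Every factor had at least 709 counts in every library.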
